A study of Mus musculus with 6 samples.

Results

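The branched-chain amino acids leucine, isoleucine and valine are broken down in mitochondria, and 10 genes of this route were followed here in dermal fibroblast cultures, with and without Nelfb, that had been kept in adipocyte differentiation medium. GEO labels both groups as adipocytes, and whether the cells of either group had become mature adipocytes was not tested here. The genes were picked by symbol from their place in the route, by a rule that holds no measured value. Earlier results of these data were known when they were chosen. They are the transaminases Bcat1 and Bcat2, the subunits Bckdha, Bckdhb and Dbt of the branched-chain keto acid dehydrogenase (BCKDH) complex, the kinase Bckdk and the phosphatase Ppm1k that control this complex, Hibch and Aldh6a1 of the valine arm, and Hsd17b10 of the isoleucine arm. All 10 were present among the 17924 genes measured, and all 10 were among the 16252 genes that were abundant enough to be tested.

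Breakdown begins when a transaminase moves the amino group to 2-oxoglutarate, which makes glutamate and a branched-chain keto acid. The BCKDH complex then removes carbon dioxide from the keto acid and attaches the rest to coenzyme A, a step that cannot be reversed. Later enzymes, different for each of the amino acids, feed the carbon into acetyl-CoA and propionyl-CoA. White adipocytes switch this pathway on as they mature, and they use part of the carbon for making lipid.

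To ask how loss of Nelfb, a subunit of the negative elongation factor that acts on paused RNA polymerase II, affects expression during adipocyte differentiation, the study sequenced RNA from 3 CTL and 3 Nelfb-/- cultures. Fibroblasts were taken from the dorsal dermis of newborn (P0) C57BL/6J pups and were kept for 14 days in a medium that drives adipocyte differentiation. All pups carried Pdgfra-Cre+, with Nelfb fl/fl in the Nelfb-/- group and either Nelfb fl/wt or Nelfb wt/wt in CTL. The labels do not give the genotype of each CTL library, and they do not say whether a library came from 1 pup or several, so that p-values measure only the spread between these libraries. Pdgfra-Cre deletes in cells of the Pdgfra lineage, and other cells of the dermis would keep Nelfb.

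Values are in CPM (reads per 1e+06 reads assigned to genes), and between 17.2 M and 29.4 M reads (M, 1e+06) lay behind each library. The shallowest value of the 10 genes, Ppm1k in Nelfb-/- replicate 2, rested on 128 reads. Nelfb itself was measured at 17.3, 19.6 and 22.3 CPM across the CTL libraries, against 5.50, 3.90 and 5.55 CPM across the Nelfb-/- libraries (log2 fold change -1.99, SE 0.22, limma adjusted p = 0.0050). CTL replicate 3 and Nelfb-/- replicate 1 stood apart from the other libraries of their groups, at -74.9 and 79.2 on the second principal component (27.7% of the variance) where the other 4 libraries lay between -29.6 and 21.9. Summed markers of adipocytes (10 genes, all present, Lep lowest at 0.180 CPM) reached 23560 to 40160 CPM in CTL and 15700 to 23550 CPM in Nelfb-/- libraries, and 2 of the 10 fell, 1 rose and 7 did not pass the test. Summed markers of macrophages lay between 184 and 677 CPM in CTL and between 1837 and 5750 CPM in Nelfb-/- libraries (7 of 8 genes higher), those of skeletal muscle between 6.72 and 7.17 against 37.5 and 62.2 CPM (5 of 5 tested higher), and those of melanocytes between 1.22 and 1.43 against 30.3 and 72.1 CPM (5 of 5 higher, with Tyr at 0 in every CTL library). Fibroblast markers summed to 3668 to 13400 CPM in CTL and 6145 to 22190 CPM in Nelfb-/- libraries, and 0 of 6 passed the limma test (2 were higher at an unadjusted p under 0.05). Schwann cell markers summed to 41.9 to 57.1 CPM in CTL and 86.0 to 109.5 CPM in Nelfb-/- libraries (2 of 3 higher, 1 lower). Keratinocyte markers summed to 1.89 to 2.45 against 3.46 to 12.85 CPM (1 of 3 tested higher), and endothelial ones to 6.70 to 10.2 against 6.81 to 18.5 CPM (0 of 4 passed). Of all genes tested, 3.64% were called lower and 7.58% higher. The part of these cell types in the values below was not tested.

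Expression of the pathway was lower in Nelfb-/- cells at the mitochondrial transaminase Bcat2, at the E1 and E2 subunits of the BCKDH complex, at Aldh6a1 of valine breakdown and at Hsd17b10 of isoleucine breakdown. Of the 10 genes, 6 (Bcat2, Bckdha, Bckdhb, Dbt, Aldh6a1 and Hsd17b10) fell past the threshold, an adjusted p of at most 0.05 with a change of at least 2-fold, where 3.64% of all genes tested fell. None rose (0 of 10 by limma, and 0 higher at an unadjusted p under 0.05), where 7.58% of all genes rose past the threshold and 9.96% by adjusted p alone. Bckdk also passed the adjusted p, with a change under 2-fold, so that 7 of 10 were lower by adjusted p alone (5.83% of all genes). In 8 of 10 genes every Nelfb-/- library was below every CTL library, which held for 16.1% of all genes, and in 0 of 10 was every Nelfb-/- library above every CTL library, which held for 22.0%. With 1 library left out, the 6 genes past the threshold became 2 without Nelfb-/- replicate 3 and 3 without CTL replicate 2, and the 7 by adjusted p alone became the same numbers. The median log2 fold change was -1.48 over the 10 genes and 0.07 over all genes tested. The 6 genes that fell are the ones that were picked out by name in the study from these same libraries, so that their direction is not independent evidence. In RNA from whole cultures, fewer cells of a type and less RNA per cell cannot be told apart.

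**Figure D1:**
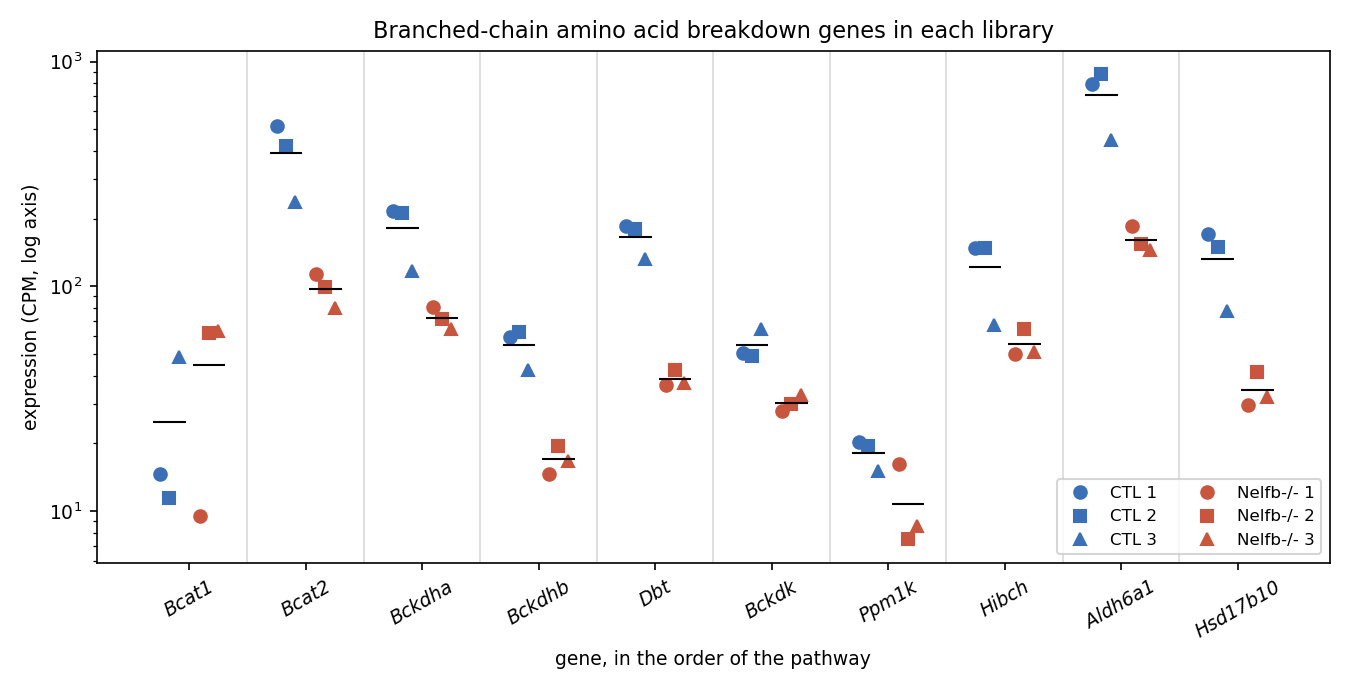
Expression of the 10 genes in each library (CPM on a log axis); marker shape gives the replicate, colour the group, and the bars the group means. The groups are apart in 8 genes, and the CTL and Nelfb-/- points of Bcat1 and Ppm1k overlap.

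Of the transaminases, the mitochondrial one fell and the cytosolic one did not pass the test. Bcat2, the mitochondrial form (ENSMUSG00000030826, GRCm38 chr7:45570153-45589711, plus strand), was measured, in the order of replicates 1, 2 and 3, at 517, 421 and 236 CPM in CTL libraries and 114, 98.9 and 80.2 CPM in the Nelfb-/- ones. All Nelfb-/- libraries were low, and even the lowest CTL library, replicate 3, was 2.08-fold above the highest of them. Bcat2 fell by 1.95 on the log2 scale (SE 0.31, limma adjusted p = 0.012), a 4.01-fold difference of the means. The adjusted p rose to 0.053 without CTL replicate 2 and to 0.064 without Nelfb-/- replicate 3. Its exons share 622 bases with the antisense gene 0610005C13Rik, which lay between 0.659 and 2.27 CPM in the 6 libraries. Bcat1, the cytosolic form (ENSMUSG00000030268, chr6:144993835-145076184, minus strand), shares 337 exon bases with the antisense gene Gm26666, which was not among the genes measured. Bcat1 was measured at 14.6, 11.3 and 48.5 CPM across the CTL libraries, against 9.48, 61.6 and 63.1 CPM across the Nelfb-/- libraries. The groups overlapped, since the libraries that stood apart were the highest of CTL (375% of the mean of the other CTL libraries) and the lowest of all (15.2% of the mean of the other Nelfb-/- libraries). On the log2 scale Bcat1 was 0.73 higher with an SE of 0.87 (limma adjusted p = 0.60), which did not pass. Leaving out 1 library at a time gave log2 fold changes between 0.27 and 1.64, all positive. Without both of the libraries that stood apart, an alternative chosen after the data were seen and one that leaves the more alike pairs by its construction, the log2 fold change was 2.27 (limma adjusted p = 7.97e-05).

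The ratio of Bcat1 to Bcat2 within a library does not depend on the scaling of that library. It was 0.0282, 0.0269 and 0.205 in CTL and 0.0835, 0.623 and 0.787 in Nelfb-/- libraries. Nelfb-/- replicates 2 and 3 had the highest ratios, and Nelfb-/- replicate 1 was below CTL replicate 3. The log2 ratio was -4.22 ± 1.67 in CTL and -1.54 ± 1.78 in Nelfb-/- cells (SD, n = 3 in each; exact two-sided permutation p = 0.2, adjusted over 6 ratios 0.3). With 3 libraries in each group this test cannot give a p under 0.1. Per kilobase of exon, Bcat2 stood at 156 ± 56.9 CPM per kb and Bcat1 at 2.77 ± 2.30 CPM per kb in CTL, against 38.9 ± 6.66 and 4.998 ± 3.41 CPM per kb in Nelfb-/- cells, so that Bcat2 remained the more abundant form in every library.

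Of the BCKDH complex, the E1 subunits Bckdha and Bckdhb and the E2 subunit Dbt fell. The shared E3 subunit Dld was lower in every Nelfb-/- library than in every CTL library, but it did not pass the test (log2 fold change -0.56, limma adjusted p = 0.059). Dbt (ENSMUSG00000000340, chr3:116513070-116549981, plus strand), the E2 core that carries the acyl group, was measured at 186, 180 and 132 CPM in the CTL libraries in turn and 36.2, 42.2 and 37.2 CPM in the Nelfb-/- ones. The Nelfb-/- libraries were close to each other, and the lowest CTL library was 3.12-fold above the highest of them. Dbt fell by 2.09 on the log2 scale (SE 0.17, limma adjusted p = 0.0033), and it passed the threshold whichever library was left out (6 of 6 fits). Bckdhb (ENSMUSG00000032263, chr9:83925145-84124240, plus strand), the beta subunit of the E1 decarboxylase, was measured at 59.3, 62.6 and 42.2 CPM across the CTL libraries, against 14.7, 19.5 and 16.7 CPM across the Nelfb-/- libraries. The groups were well apart, and CTL replicate 3 was again the lowest of its group. Bckdhb fell by 1.68 (log2, SE 0.20, limma adjusted p = 0.0060), also in 6 of 6 fits that left out a library.

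Bckdha (ENSMUSG00000060376, chr7:25629946-25658981, minus strand), the alpha subunit of E1 that the kinase phosphorylates, was measured at 216, 212 and 117 CPM in the CTL libraries in turn and 80.4, 71.6 and 64.2 CPM in the Nelfb-/- ones. The groups did not overlap, although CTL replicate 3 lay nearer to the Nelfb-/- libraries than to the rest of CTL. Bckdha fell by 1.28 (log2, SE 0.26, limma adjusted p = 0.024), the smallest change of these 3 subunits. This call was the least stable of the 6, with an adjusted p of 0.086 without CTL replicate 1, 0.090 without CTL replicate 2, 0.076 without Nelfb-/- replicate 2 and 0.102 without Nelfb-/- replicate 3. Exons of Bckdha share 1171 bases with B3gnt8 on the opposite strand, and whether the counting used the strand is not given in the sources used here. B3gnt8 itself was measured at 25.7, 24.6 and 17.4 CPM across the CTL libraries, against 14.0, 12.0 and 9.77 CPM across the Nelfb-/- libraries.

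To compare the subunits with each other, ratios were taken within each library. The ratio of Dbt to Bckdha was 0.860, 0.8495 and 1.13 in CTL and 0.450, 0.589 and 0.580 in Nelfb-/- libraries. Every Nelfb-/- ratio was below every CTL ratio, and the mean log2 ratio differed by -0.81 (exact two-sided permutation p = 0.1, the smallest that 3 against 3 can give; adjusted p 0.2). The ratio of Bckdhb to Bckdha was 0.274, 0.296 and 0.362 in CTL and 0.182, 0.272 and 0.260 in Nelfb-/- libraries. Here the groups were apart by very little, and the mean log2 ratio differed by -0.40 (exact permutation p = 0.1, adjusted 0.2).

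**Figure D2:**
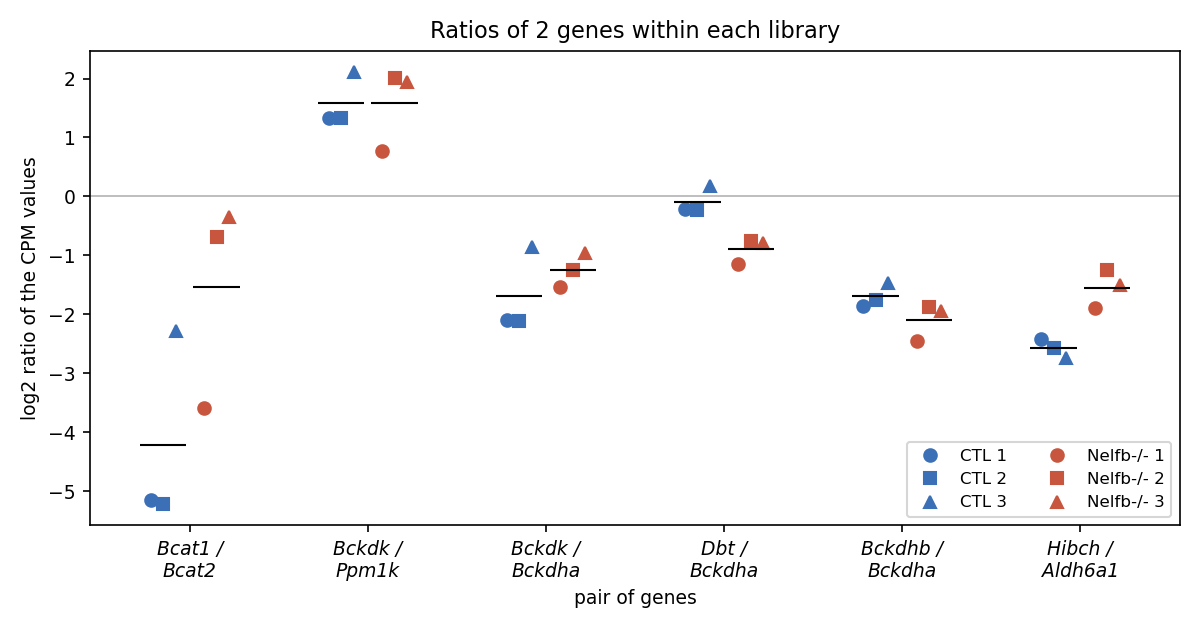
Log2 ratio of the CPM values of a pair of genes within each library, for 6 pairs; shapes and colours give replicate and group, and the bars the group means. CTL and Nelfb-/- libraries are apart for Dbt to Bckdha, Bckdhb to Bckdha and Hibch to Aldh6a1, and overlap for the other 3 pairs.

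Of the enzymes that switch the complex off and on, the kinase fell by less than 2-fold and the phosphatase did not pass the test. Bckdk (ENSMUSG00000030802, chr7:127904082-127910221, plus strand), the kinase that inactivates BCKDH, was measured at 50.5, 49.0 and 64.5 CPM in the CTL libraries in turn and 27.7, 30.04 and 32.9 CPM in the Nelfb-/- ones. The groups were apart, and CTL replicate 3 was the highest library here, unlike in Dbt, Bckdhb and Bckdha. Bckdk fell by 0.85 (log2, SE 0.16, limma adjusted p = 0.018), which is under the 2-fold limit. Its adjusted p was 0.062 without CTL replicate 1, 0.057 without CTL replicate 2, 0.066 without Nelfb-/- replicate 2 and 0.070 without Nelfb-/- replicate 3. Ppm1k (ENSMUSG00000037826, chr6:57506502-57535468, minus strand), the phosphatase that restores activity, was measured at 20.2, 19.4 and 15.0 CPM across the CTL libraries, against 16.2, 7.45 and 8.53 CPM across the Nelfb-/- libraries. The groups overlapped, with Nelfb-/- replicate 1 above CTL replicate 3. The log2 fold change of Ppm1k, -0.83 with an SE of 0.32, missed the threshold (limma adjusted p = 0.13), and it came to -1.17 (limma adjusted p = 0.021) when Nelfb-/- replicate 1 was left out.

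The ratio of kinase to phosphatase was 2.50, 2.53 and 4.30 in CTL and 1.72, 4.03 and 3.86 in Nelfb-/- libraries. The libraries that stood apart held the highest and the lowest ratio, and the mean log2 ratios of 1.59 ± 0.45 and 1.58 ± 0.69 (SD, n = 3 in each) gave an exact permutation p of 1. The sign of this difference was not stable, at 0.25 without CTL replicate 3 and 0.39 without Nelfb-/- replicate 1 against -0.0098 with all libraries. The ratio of Bckdk to Bckdha was 0.234, 0.231 and 0.554 in CTL and 0.345, 0.419 and 0.513 in Nelfb-/- libraries. CTL replicate 3 had the highest ratio of all, and the groups overlapped (difference of the mean log2 ratio 0.44, exact permutation p = 0.4, adjusted 0.48).

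In the valine arm, Aldh6a1 fell and Hibch did not pass the test. Aldh6a1 (ENSMUSG00000021238, chr12:84430717-84451004, minus strand), which turns methylmalonate semialdehyde into propionyl-CoA, was measured at 795, 881 and 449 CPM in the CTL libraries in turn and 185, 154 and 145 CPM in the Nelfb-/- ones. The groups were wide apart, and per kilobase of exon Aldh6a1 had the highest mean level of the 10 genes in both groups (208 ± 67.3 CPM per kb in CTL, 47.5 ± 6.27 in Nelfb-/- cells). Aldh6a1 fell by 2.08 (log2, SE 0.28, limma adjusted p = 0.0080), and the adjusted p rose to 0.051 without Nelfb-/- replicate 3. Its exons share 1078 bases with Bbof1 on the opposite strand, which was at 7.74, 8.96 and 3.66 CPM across the CTL libraries, against 3.24, 1.69 and 1.59 CPM across the Nelfb-/- libraries. Hibch (ENSMUSG00000041426, chr1:52844929-52920986, plus strand), which frees 3-hydroxyisobutyrate from coenzyme A upstream of Aldh6a1, was measured at 149, 148 and 67.2 CPM in the CTL libraries in turn and 50.0, 64.7 and 51.0 CPM in the Nelfb-/- ones. CTL replicates 1 and 2 were high, while CTL replicate 3 was only 1.04-fold above the highest Nelfb-/- library. A log2 fold change of -1.05 with an SE of 0.33 left Hibch outside the threshold (limma adjusted p = 0.077), and with CTL replicate 3 left out the estimate became -1.44 (limma adjusted p = 0.0065).

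The ratio of Hibch to Aldh6a1 was 0.187, 0.168 and 0.1496 in CTL and 0.270, 0.419 and 0.353 in Nelfb-/- libraries. Every Nelfb-/- library was above every CTL library, and CTL replicate 3 lay with the rest of CTL. The log2 ratio was -2.58 ± 0.16 in CTL and -1.55 ± 0.32 in Nelfb-/- cells (SD, n = 3 in each; exact permutation p = 0.1, adjusted 0.2).

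Hsd17b10 (ENSMUSG00000025260, chrX:152001845-152004442, plus strand), a mitochondrial dehydrogenase that acts late in isoleucine breakdown, was measured at 171, 150 and 77.9 CPM across the CTL libraries, against 29.5, 41.7 and 32.1 CPM across the Nelfb-/- libraries. The groups did not overlap, and CTL replicate 3 was the lowest of its group. Hsd17b10 fell by 1.88 (log2, SE 0.32, limma adjusted p = 0.014), a 3.86-fold difference, and the adjusted p rose to 0.058 without CTL replicate 2 and to 0.067 without Nelfb-/- replicate 3. This is the only one of the 10 genes on the X chromosome. Xist, the RNA of the inactive X, was at 771.5, 29.8 and 15.3 CPM in the CTL libraries in turn and 0.427, 0.116 and 0.204 CPM in the Nelfb-/- ones. Every Nelfb-/- library was thus below every CTL library for Xist, which fell past the threshold (log2 fold change -8.05). The sum of 4 Y-linked genes was 7.76 CPM in CTL replicate 1 and 162 to 264 CPM in the other 5 libraries, and 0 of these 4 genes passed the test. Sex markers therefore differed within CTL, and Xist differed between the groups as well. The part of this in the values of Hsd17b10, and in those of the other genes, was not tested.

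**Figure D3:**
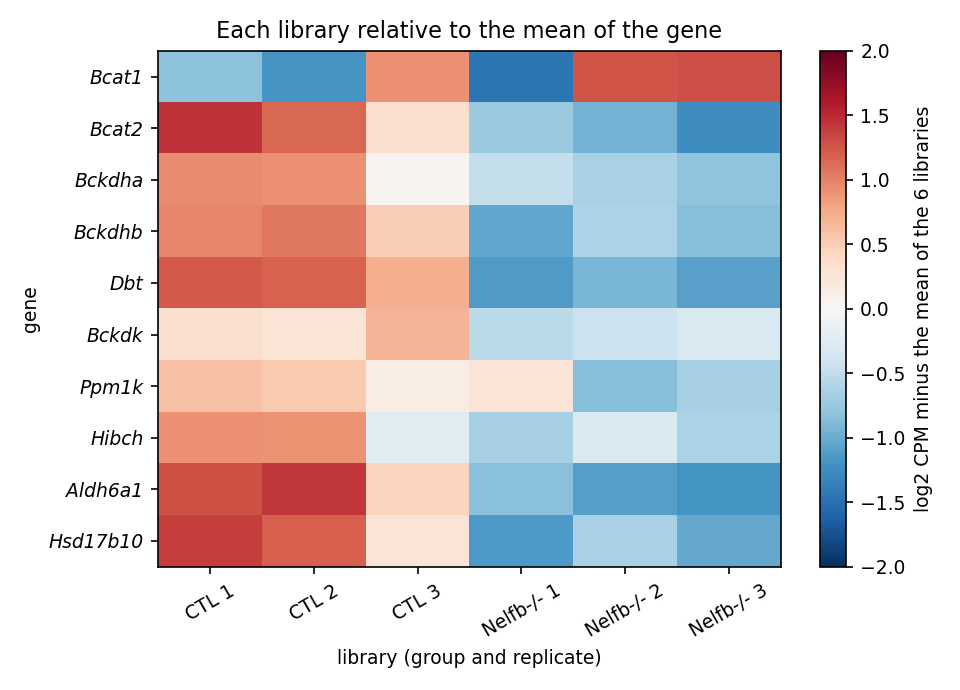
Each library's log2 CPM minus the mean of the gene over the 6 libraries (colour scale in log2 units), one row for each of the 10 genes and one column for each library. In 8 genes CTL replicate 3 lies below CTL replicates 1 and 2, Bckdk is highest there, and Bcat1 is high in CTL replicate 3 and in Nelfb-/- replicates 2 and 3.

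CTL replicate 3 was thus below CTL replicates 1 and 2 in 8 of the 10 genes, and above them in Bcat1 and Bckdk. Per kilobase of exon, the mean level in CTL ran from Aldh6a1 (208 CPM per kb) through Bcat2 (156), Hsd17b10 (134), Bckdha (95.5), Hibch (65.1), Dbt (50.2), Bckdhb (33.9), Bckdk (15.1) and Ppm1k (3.08) to Bcat1 (2.77). The libraries of neighbours in this order overlapped from Aldh6a1 down to Dbt and again for Ppm1k and Bcat1, while Dbt, Bckdhb, Bckdk and Ppm1k were each apart from the next. In Nelfb-/- cells the mean levels of Aldh6a1 (47.5 CPM per kb), Bcat2 (38.9), Bckdha (38.0), Hsd17b10 (34.7) and Hibch (29.7) followed each other with overlap. Below a gap came Dbt (11.7), Bckdhb (10.51) and Bckdk (8.36), also overlapping, and then Bcat1 (4.998) and Ppm1k (1.81).

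To see which profiles were most alike, the root mean square distance between centred log2 values was taken over the 6 libraries, as a description. The nearest genes to Bcat2 of all tested were Dpep1 (0.12), Rcan2 (0.14) and Hacd2 (0.16), and Aldh6a1 was the 5th (0.16) and Hsd17b10 the 12th nearest (0.23). The nearest to Dbt were Tmie (0.14), Cenpv (0.14) and Acot5 (0.14), with Aldh6a1 15th and Bckdhb 18th. The nearest to Bcat1 were Top2a (0.14), Ercc6l (0.15) and Asf1b (0.16), of which Top2a was at 19.7, 18.1 and 86.6 CPM across the CTL libraries, against 14.4, 106.6 and 91.4 CPM across the Nelfb-/- libraries. Top2a, a topoisomerase of dividing cells, was thus low and high in the same libraries as Bcat1.

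The stretch of 250 bases before a RefSeq start of transcription (GRCm38.p6) was read for the genes that had one, which were 9 of the 10 (all but Dbt), and 4 of these are printed because they span the responses seen: Bcat1 with no call, Bcat2 and Bckdhb with a call, and Aldh6a1 with the highest level. The 4 printed genes have 2 RefSeq starts each. Only the start nearest the annotated 5′ end of a gene was read. Each runs 5′ to 3′ on the strand of its gene. Capitals mark matches on either strand to 3 short motifs. The letters GGGCGG are a GC box, bound by factors of the Sp family. The CCAAT box, bound by the factor NF-Y, is named after its letters. The letters AGGTCA are the core motif that many nuclear receptors bind.
Bcat1, chr6:145076158-145076407, minus strand: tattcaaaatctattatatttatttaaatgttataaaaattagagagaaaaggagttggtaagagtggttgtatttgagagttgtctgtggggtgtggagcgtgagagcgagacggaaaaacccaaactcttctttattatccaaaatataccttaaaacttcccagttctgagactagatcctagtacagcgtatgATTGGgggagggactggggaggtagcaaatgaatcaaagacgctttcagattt
Bcat2, chr7:45569903-45570152, plus strand: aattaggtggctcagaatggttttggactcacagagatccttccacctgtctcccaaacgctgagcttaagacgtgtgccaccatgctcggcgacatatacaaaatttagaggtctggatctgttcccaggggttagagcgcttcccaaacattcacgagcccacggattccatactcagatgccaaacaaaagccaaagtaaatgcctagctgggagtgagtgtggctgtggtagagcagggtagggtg
Bckdhb, chr9:83924887-83925136, plus strand: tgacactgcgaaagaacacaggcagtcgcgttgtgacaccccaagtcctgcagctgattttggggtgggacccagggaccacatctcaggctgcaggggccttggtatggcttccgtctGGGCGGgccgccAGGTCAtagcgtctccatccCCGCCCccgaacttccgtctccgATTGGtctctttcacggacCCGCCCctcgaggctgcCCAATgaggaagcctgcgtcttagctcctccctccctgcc
Aldh6a1, chr12:84451025-84451274, minus strand: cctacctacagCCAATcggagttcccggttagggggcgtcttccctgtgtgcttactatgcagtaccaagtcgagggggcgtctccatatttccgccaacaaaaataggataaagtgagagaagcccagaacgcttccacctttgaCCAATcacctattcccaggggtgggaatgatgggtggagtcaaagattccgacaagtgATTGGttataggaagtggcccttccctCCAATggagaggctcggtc
Bcat1 held 1 CCAAT box in a window of 37.6% G and C, Bcat2 held none of the motifs (50.4%), Bckdhb held 3 GC boxes, 2 CCAAT boxes and 1 receptor core motif (63.2%), and Aldh6a1 held 4 CCAAT boxes (52.4%). A CCAAT box was found in 6 of the 9 genes and in 33.8% of all 32851 windows, a GC box in 4 of 9 and 32.7%, and a receptor core motif in 2 of 9 (Bckdhb and Ppm1k) and 14.0%. A TATA box (TATAAA) was found in 2 of 9 (Bcat1 and Bckdk) and 12.4%. The ERR response element, the DR1 repeat bound by PPAR receptors (both of which contain the receptor core motif) and the NRF1 site were found in 0 of 9, and in 0.387%, 0.0335% and 0.782% of all windows. These are matches of letters only, in 1 window for each of the 9 genes, while the 32851 windows count every start of a gene.

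To place the 10 genes in the whole route, 15 further enzymes of branched-chain amino acid breakdown were examined. The log2 fold change was negative in all 15 (45.4% of all genes), with a median of -0.75, and every Nelfb-/- library was below every CTL library in 13 of them (16.1% of all genes). The threshold was passed by 4 (3.64% of all genes) and the adjusted p alone by 7 (5.83%), and the 4 became 2 without CTL replicate 1, CTL replicate 2, Nelfb-/- replicate 1 or Nelfb-/- replicate 3. Pccb, the beta subunit of propionyl-CoA carboxylase, was measured at 83.6, 72.5 and 87.1 CPM in the CTL libraries in turn and 13.3, 21.5 and 21.3 CPM in the Nelfb-/- ones. The groups were wide apart, and Pccb fell by 2.14 (log2, SE 0.22, limma adjusted p = 0.0042). Its partner Pcca went from 61.9 ± 6.81 to 40.6 ± 11.6 CPM (SD, n = 3), which did not pass (-0.65 on the log2 scale, limma adjusted p = 0.12). Echs1, a hydratase used in valine and isoleucine breakdown and in fatty acid oxidation, was also picked out by name in the study from these libraries, so that its direction is not independent evidence. It was measured at 194, 192 and 217 CPM across the CTL libraries, against 62.4, 76.2 and 65.8 CPM across the Nelfb-/- libraries. CTL replicate 3 was the highest library for Echs1 and for Pccb, both of which passed the threshold in 6 of 6 fits that left out a library (Echs1 log2 fold change -1.56, SE 0.14, limma adjusted p = 0.0035).

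In the leucine arm, Mccc2 (a subunit of methylcrotonyl-CoA carboxylase) fell by 1.09 and Auh (the hydratase after it) by 1.01 on the log2 scale (limma adjusted p = 0.020 and 0.0097). Both are near the 2-fold limit. Mccc2 held its call only without CTL replicate 3, since its adjusted p was 0.077, 0.083, 0.053 and 0.078 without CTL replicates 1 and 2 and Nelfb-/- replicates 2 and 3, and its log2 fold change was -0.96 without Nelfb-/- replicate 1. Auh went under 2-fold without CTL replicate 1 (-0.92), CTL replicate 2 (-0.99) or Nelfb-/- replicate 1 (-0.96), and its adjusted p was 0.057 without Nelfb-/- replicate 3. Mccc1, the other subunit of the carboxylase, fell by 0.57 (limma adjusted p = 0.040), under 2-fold. Ivd, the isovaleryl-CoA dehydrogenase, stood at -0.91 (limma adjusted p = 0.090). In the valine arm, Hibadh, which acts between Hibch and Aldh6a1, fell by 0.98 (limma adjusted p = 0.024), just under 2-fold. The acyl-CoA dehydrogenase Acad8 did not pass, at 28.6 ± 1.33 CPM in CTL libraries and 27.6 ± 2.41 CPM in Nelfb-/- ones (SD, n = 3, with limma giving -0.05 on the log2 scale, SE 0.13, adjusted p = 0.82). In the isoleucine arm, Acadsb (-0.57, limma adjusted p = 0.064) and Acat1 (-0.98, limma adjusted p = 0.096) did not pass. Below propionyl-CoA, the methylmalonyl-CoA mutase Mmut fell by 0.75 (limma adjusted p = 0.016), and the epimerase Mcee stood at -0.43 (limma adjusted p = 0.084). Mccc1, Hibadh and Mmut each lost the adjusted p without CTL replicate 1 (0.15, 0.093 and 0.074), CTL replicate 2 (0.12, 0.094 and 0.074), Nelfb-/- replicate 2 (0.12, 0.068 and 0.064) or Nelfb-/- replicate 3 (0.17, 0.11 and 0.089). Dld, the E3 component that BCKDH shares with the pyruvate and 2-oxoglutarate complexes, went from 249 ± 7.51 to 170 ± 25.9 CPM (log2 fold change -0.56, limma adjusted p = 0.059). Over all 25 genes of the route, 10 fell (3.64% of all genes), 0 rose by limma (7.58% of all genes, with 0 of the 25 higher also at an unadjusted p under 0.05), and 24 had a negative log2 fold change (45.4% of all genes), Bcat1 being the one that did not. The 10 became 5 without CTL replicate 2 and 4 without Nelfb-/- replicate 3.

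**Figure D4:**
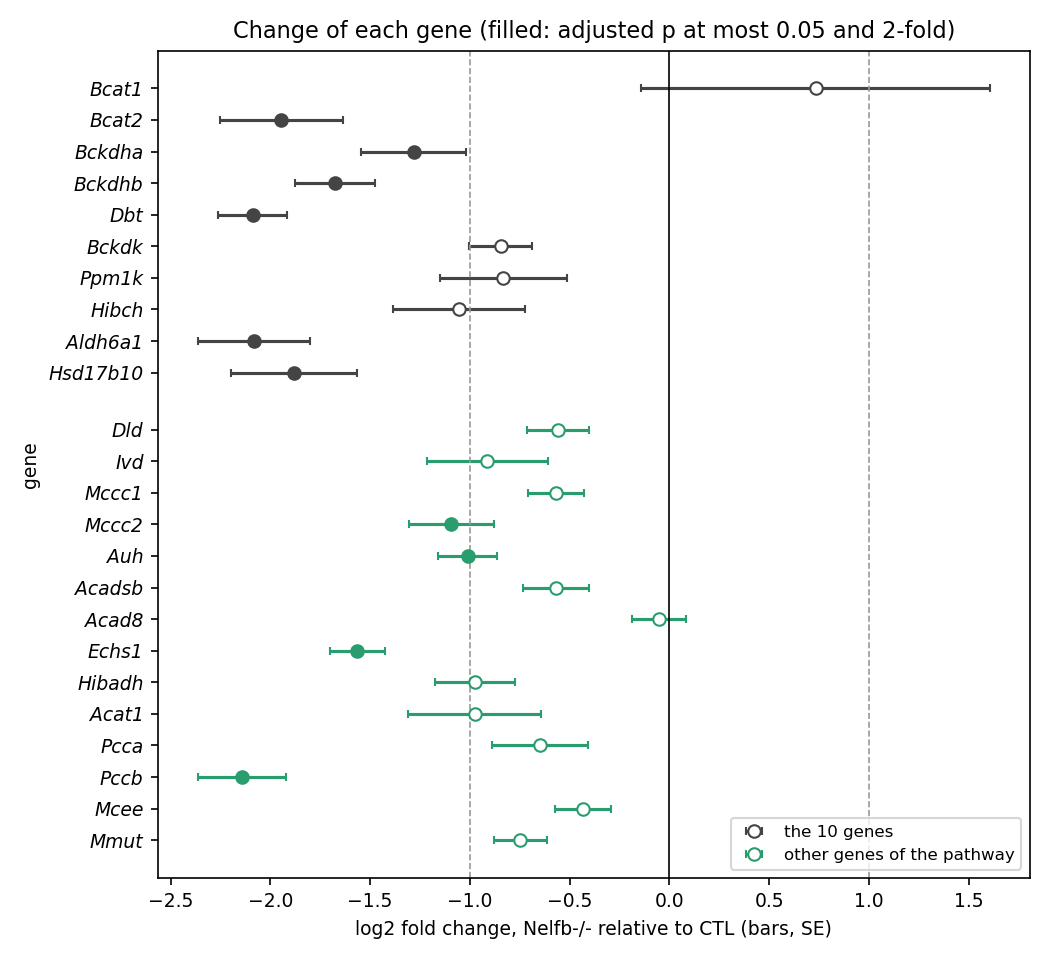
Log2 fold change of Nelfb-/- relative to CTL with its standard error, for the 10 genes (grey) and 14 of the 15 further genes of the route (green); filled points passed an adjusted p of 0.05 and 2-fold, and dashed lines mark 2-fold. Dbt, Aldh6a1 and Pccb lie near -2, and Bcat1 has the widest error.

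The sister complexes and the carriers were read for comparison. Of 13 genes of the pyruvate and 2-oxoglutarate dehydrogenase complexes and their kinases and phosphatases, 1 fell past the threshold (Pdhb, an E1 subunit of pyruvate dehydrogenase, which fell by 1.016 on the log2 scale, limma adjusted p = 0.014), where 3.64% of all genes fell, and the median was -0.48. The adjusted p of Pdhb was 0.052, 0.054 and 0.076 without CTL replicate 1, CTL replicate 2 and Nelfb-/- replicate 3, and the gene went under 2-fold without CTL replicate 3 (-0.91) or Nelfb-/- replicate 1 (-0.91). Of 6 carriers of branched-chain amino acids, 1 rose, where 7.58% of all genes rose. Slc7a8, a carrier of the plasma membrane, was measured at 13.2, 5.13 and 8.50 CPM in the CTL libraries in turn and 81.9, 52.4 and 75.4 CPM in the Nelfb-/- ones. The groups were far apart, and Slc7a8 rose by 3.04 (log2, SE 0.36, limma adjusted p = 0.0060). Slc25a44, which carries branched-chain amino acids into mitochondria, was measured at 139, 131 and 87.0 CPM across the CTL libraries, against 69.8, 80.7 and 69.6 CPM across the Nelfb-/- libraries. These values did not overlap, but the difference missed the threshold (-0.67 on the log2 scale, SE 0.20, limma adjusted p = 0.073). The heterodimer Slc7a5 and Slc3a2 had log2 fold changes of -0.33 and -0.38 (limma adjusted p = 0.61 and 0.46), Slc43a1 one of -0.51 (0.64) and Slc43a2 one of 1.99 with an SE of 0.84 (0.16).

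Of 15 genes of fatty acid beta-oxidation, a mitochondrial route with similar chemical steps, 7 fell past the threshold (3.64% of all genes) and 0 rose by limma (7.58% of all genes, with 0 of the 15 higher also at an unadjusted p under 0.05), with a median log2 fold change of -0.94. Acadl, a long-chain acyl-CoA dehydrogenase and 1 of the 7, was likewise named in the study from these libraries. With 1 library left out this count was 0 without Nelfb-/- replicate 3, then 1, 2 and 6 without CTL replicates 1, 2 and 3, and 4 and 8 without Nelfb-/- replicates 1 and 2. The largest of these changes were in Etfb (-1.52, limma adjusted p = 0.011, or 0.057 without Nelfb-/- replicate 3), which passes electrons from acyl-CoA dehydrogenases, and Eci1, an isomerase (-1.34, limma adjusted p = 0.011, or 0.059 without Nelfb-/- replicate 3 and 0.0502 without CTL replicate 1). Among 8 genes of glutamate and aminotransferase metabolism, 1 fell past the threshold (Gpt2, the mitochondrial alanine transaminase, by 1.06, limma adjusted p = 0.036), against the same 3.64% of all genes. Gpt2 lost its call without CTL replicate 1 (0.12), CTL replicate 2 (0.13), Nelfb-/- replicate 2 (0.10) or Nelfb-/- replicate 3 (0.14). Of 4 transcription regulators known for mitochondrial and amino acid catabolic genes, Klf15 was measured at 95.3, 106.3 and 74.1 CPM in the CTL libraries in turn and 53.5, 28.5 and 24.2 CPM in the Nelfb-/- ones. Klf15 fell by 1.45 (log2, SE 0.32, limma adjusted p = 0.029), and the adjusted p was 0.099, 0.11, 0.094 and 0.10 without CTL replicates 1 and 2 and Nelfb-/- replicates 2 and 3. Ppargc1b, a coactivator, fell by 1.06 (limma adjusted p = 0.013), and held its call only without Nelfb-/- replicate 2, with 0.055, 0.0502 and 0.070 without CTL replicates 1 and 2 and Nelfb-/- replicate 3 and under 2-fold without CTL replicate 3 (-0.97) or Nelfb-/- replicate 1 (-0.98). Pparg, the adipocyte receptor, did not pass (-0.51 on the log2 scale, limma adjusted p = 0.11), nor did Ppargc1a (-0.99, limma adjusted p = 0.29). Every Nelfb-/- library was below every CTL library for Pparg. Its limma adjusted p was 0.033 without CTL replicate 3, with a change under 2-fold, and 0.14 to 0.33 without any other library. The study's discussion describes Pparg as significantly lower in its RNA-seq, by its own test.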

How the data were processed

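RNA-seq of 3 CTL and 3 Nelfb-/- cultures was analysed. The authors deposited CPM values per gene. Per the labels, the submitters' processing notes name STAR 2.7, Partek 9.0.20.0202 and mm10, and the study's methods name DESeq2. The counting step is not given in the sources used here. The deposited table holds no comparison columns. An offset of 0.0001 CPM was subtracted. The smallest step of each library gave the CPM worth of 1 read and so its depth. Of the values up to 20 reads, 69.8% to 72.3% lay within 0.02 of a whole number of reads, so no count test was run.

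Each CPM value was rescaled to the geometric mean depth (22.3 M reads, M being 1e+06), genes averaging 10 reads or more (0.448 CPM) were kept, and log2(value + 1) was tested with limma 3.58.1 (R 4.3.3) with an abundance trend and Benjamini-Hochberg adjustment over all 16252 genes. Log2 fold changes are on this scale, which understates low genes. The limits, an adjusted p of 0.05 and 2-fold, are those of the study. Ratios were tested by exact permutation. The script was tested on simulated data. Levels per kilobase use the exon length of GENCODE vM21 (GRCm38), where 17551 of 17924 genes matched by name and 98.9% of these had the same start and end. SD is over the 3 libraries of a group.

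The 10 genes and the lists were chosen with earlier results of these data known. Named are all 10 genes, genes of the other breakdown, transport and regulator lists, up to 4 called genes of each other list, and the 3 nearest profiles to Bcat1, Bcat2 and Dbt. The genes overlapping the 10 in their exons were added after the data were seen, and some genes of the lists are counted but not reported here by name. There were 17 alternatives (scalings, pseudocounts, filters, limma settings, a replicate block and left-out libraries), of which 16 were planned and 1, leaving out CTL replicate 3 and Nelfb-/- replicate 1 together, was chosen after seeing the data.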

Additional observations from a re-analysis of the deposited data

How the results depend on the processing

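The log2 fold changes of the 10 genes kept their direction in all 17 alternatives. Dbt and Bckdhb kept their call in all 17, Aldh6a1 in 16, Bcat2 and Hsd17b10 in 14 each, and Bckdha in 12. The 6 genes called lower were 3 with no moderation of the variances and 2 to 7 when 1 library was left out (2 without Nelfb-/- replicate 3, 3 without CTL replicate 2). The 7 past the adjusted p alone were 3 with no moderation and 2 to 8 when 1 library was left out, and the 4 further genes of the route were 2 to 6. Without CTL replicate 3 and Nelfb-/- replicate 1 together, 8 genes were called lower, 1 (Bcat1) higher, 10 passed the adjusted p and 6 further genes were called; leaving out the libraries that stand apart lowers the spread by construction. The difference in the log2 ratio of Bckdk to Ppm1k (Nelfb-/- minus CTL), -0.0098 with all libraries, was -0.23 to 0.39 when 1 library was left out, with a reversed sign without CTL replicate 3 (0.25) and without Nelfb-/- replicate 1 (0.39). Replicate numbers did not pair the libraries (correlations of same-numbered deviations 0.515, -0.395 and 0.518), and with a replicate block 7 genes were called lower, Hibch being added (limma adjusted p = 0.040), 8 passed the adjusted p, 0 were called higher and 4 further genes were called. Other scalings moved the median of all genes from 0.07 to 0.02 or -0.0047. The lowest value of the 10 genes rested on 128 reads, and the part of depth in these results was not tested. Each group held only 3 libraries.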
